A study of Mus musculus with 2 samples.

Results

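The genes described here make, take up, move and export cholesterol. They were chosen by name from the pathway's textbook steps, with earlier results of these data known. The list held 34 genes, of which 31 were found among the 20722 gene symbols of the deposited table. Hmgcs1, Mvd and Scap were not analysed here. One gene, Msmo1, stands in the table under its older symbol Sc4mol.

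The study sequenced mRNA of isolated villi from mouse small intestine. Villi are the projections of the gut wall that carry the absorptive epithelium. The dKO-labelled library came from C57BL/6 villi of genotype Rosa26-CreERT2 Cdkn2a-/- Ring1a-/- Ring1bf/f. This genotype lacks Ring1a throughout the body and carries floxed Ring1b, which a tamoxifen-activated Cre, driven in all tissues from the Rosa26 locus, can delete. Ring1a (gene symbol Ring1) and Ring1b (Rnf2) are the ubiquitin ligases of Polycomb repressive complex 1, a chromatin complex that keeps genes silent. The WT library came from C57BL/6 villi of genotype Rosa26-CreERT2 Cdkn2a-/-, so both genotypes carried the Cre and lacked the tumour suppressor locus Cdkn2a. Both received 3 tamoxifen injections, and villi were taken on day 6 afterwards. The number of animals behind a library and their ages are not given in the labels. The question the design poses is which villus genes depend on these ligases.

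There was 1 library per genotype, so nothing below has a replicate check and no p-value is computed for a difference between genotypes. The dKO-labelled library held 1058196 reads and the WT library 775827. Folds are ratios of reads after the deposited scaling (size factors in a ratio of 1.11), with exact 95% Clopper-Pearson intervals that cover counting error only. A gene counts as measured at a mean of at least 20 normalised reads. It counts as higher or lower when log2((dKO + 1)/(WT + 1)) of the normalised counts corresponds to at least 2-fold in that direction. The median of all 6001 measured genes on that scale was 0.51, so a gene near 0.51 sits with the bulk of the transcriptome. Values are given per whole transcript and not per exon. Rnf2 had 82 reads in the dKO-labelled library and 59 in the WT library, and Ring1 had 10 in each. Neither targeted gene was lower, so these counts do not check the label, which is used as given.

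Several markers moved with the library label. Reads over 7 fibroblast genes numbered 251 in the dKO-labelled library and 44 in the WT library (5.14-fold, 3.72 to 7.26), with 6 of 7 genes detected in each library and Dcn at 0 in both. Smooth muscle genes summed to 499 and 193 reads (2.33-fold, 1.97 to 2.77), and crypt and proliferation genes to 126 and 26 (4.37-fold, 2.85 to 6.94), with Olfm4 at 13 and 0. The 12 absorptive enterocyte markers, which define the tissue, were all detected and summed to 16747 reads in the dKO-labelled library and 13067 in the WT library (1.16-fold, 1.13 to 1.18). Within them Sis had 357 and 37 reads (8.70-fold, 6.19 to 12.6) and Lct 847 and 184 (4.15-fold, 3.53 to 4.89), while the other 10 markers lay between 0.844-fold and 1.69-fold. Macrophage genes summed to 310 and 239 reads (1.17-fold, 0.984 to 1.39). Lymphocyte genes summed to 155 and 81 (1.72-fold, 1.31 to 2.29), with Ptprc at 0 in both libraries. Endothelial genes summed to 49 and 53 (0.833-fold, 0.553 to 1.25). The endothelial genes did not move together: Tie1 had 5 reads in the dKO-labelled library and 48 in the WT library, whereas Lyve1 had 19 and 1, Plvap 13 and 3, and Vwf 10 and 0. The Y-linked gene Ddx3y had 131 reads in the dKO-labelled library and 0 in the WT library, and Xist had 1 and 80, so an effect of sex cannot be told apart from one of genotype. The part of any of these in the results below was not tested. In such tissue samples, fewer cells of a type and less RNA per cell cannot be told apart.

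Cells make cholesterol from acetyl-CoA. The mevalonate arm builds isoprenoid units, and a later arm joins them into squalene, closes the rings as lanosterol and trims lanosterol to cholesterol. The SREBP transcription factors switch these enzymes on when sterols in the endoplasmic reticulum are low. SCAP escorts SREBP to the Golgi, and INSIG proteins hold it back when sterols are abundant. When sterols are abundant the LXR receptors act in the opposite sense, activating exporters such as ABCA1. In the gut, enterocytes take up cholesterol through NPC1L1, esterify it for chylomicrons and return part of it to the lumen through the ABCG5-ABCG8 pair.

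Most synthesis genes were higher in the dKO-labelled library, whereas the exporter gene Abca1 was lower and the factor gene Srebf1 was not higher. Among the 24 measured members, 16 were at least 2-fold higher and 1 was at least 2-fold lower. Over all 6001 measured genes these shares were 26.2% and 4.18%. Because the members were chosen with earlier results of these data known, the comparison is a description and not a test. The members' median log2 ratio was 1.52, against 0.51 for all measured genes. Under upper-quartile scaling, which shifts every log2 ratio by -0.69, the split was 10 higher and 2 lower, beside 532 higher and 861 lower among all measured genes. Relative to the median of measured genes, 12 members lay above by at least 2-fold and 1 lay below, where the shares of all measured genes were 11.8% and 10.4%. The counting interval lay wholly beyond 2-fold for 12 members that were higher and 1 that was lower, against 10.4% and 1.73% of measured genes. The filter on the mean bears on these counts: 6 of the 24 (Acat2, Dhcr7, Lss, Mylip, Nsdhl and Pmvk) reached 20 in the dKO-labelled library alone, and Abca1 in the WT library alone. Among the 17 members with at least 20 in both libraries, 11 were higher and 0 lower, against 18.9% and 3.50% of the 5051 genes that met that limit. The remaining 7 of the 31 genes were below the minimum and are described by their reads.

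**Figure D1:**
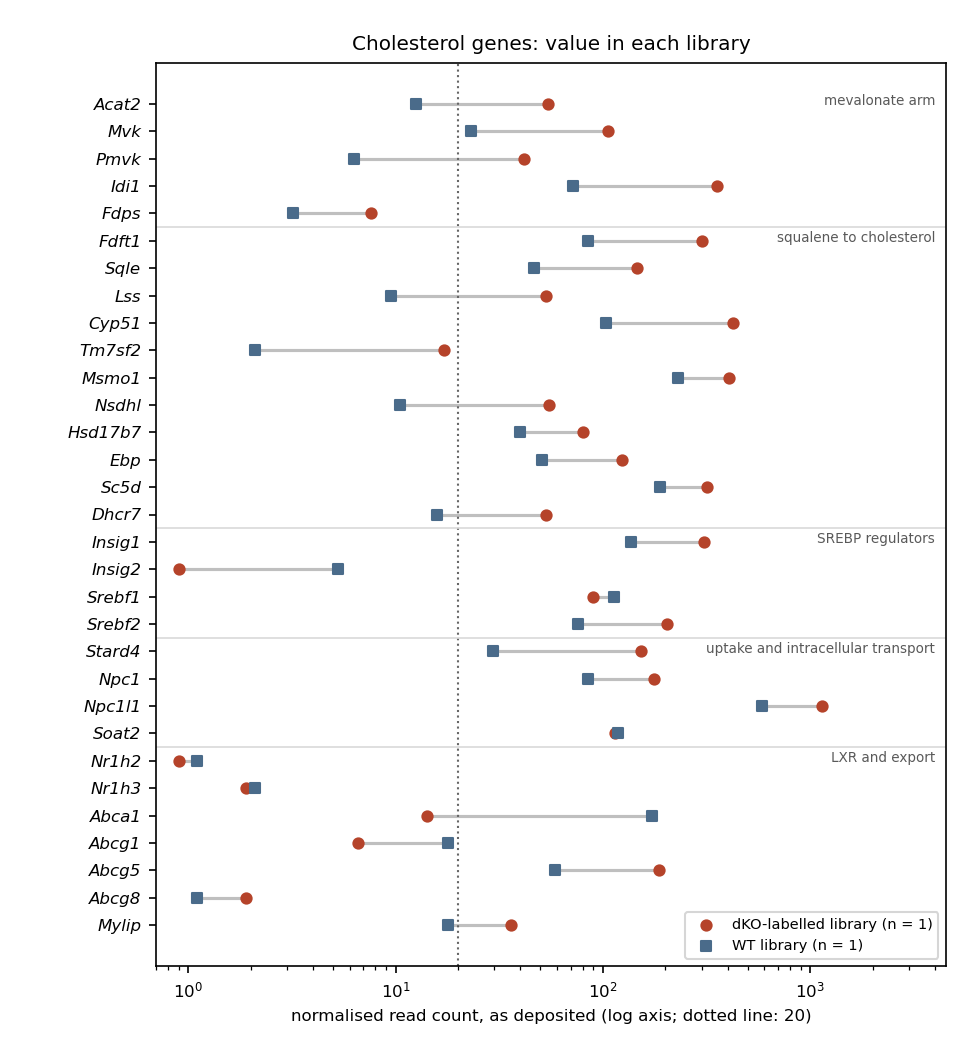
Normalised read count of each of the 31 genes in the dKO-labelled library (circles) and the WT library (squares) on a log axis, grouped by step, 1 library each, with a dotted line at 20. Synthesis genes have the circle to the right of the square, and Abca1 shows the reverse with 14.2 in the dKO-labelled library and 171.7 in the WT library.

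In the mevalonate arm, all 4 measured genes were at least 2-fold higher, against 26.2% of all measured genes. Their median log2 ratio was 2.21. Of the 4, Acat2 and Pmvk were below 20 normalised reads in the WT library (12.6 and 6.3). They passed the minimum through the dKO-labelled library, where they are high. Idi1, the isomerase that interconverts the pathway's isoprenoid units, had 372 reads in the dKO-labelled library and 67 in the WT library (5.0-fold, 3.85 to 6.59). Mvk, mevalonate kinase, had 110 reads in the dKO-labelled library and 21 in the WT library (4.72-fold, 2.94 to 7.93). Pmvk, the kinase of the next step, had 43 and 5 (7.75-fold, 3.08 to 25.1), the highest ratio among measured members, at rank 137 of 6001. That first place depends on the processing. A further row of Pmvk had 0 reads in the dKO-labelled library and 1 in the WT library. With its rows summed, its log2 ratio of 2.55 became 2.35, below Lss at 2.37. With 5 in place of 1 added to each count it was 2.05, below Idi1 at 2.23. For Idi1, Mvk and Pmvk the lower limit of the counting interval exceeded 2-fold. Acat2 encodes the cytosolic thiolase that makes acetoacetyl-CoA and had 56 reads in the dKO-labelled library and 11 in the WT library (4.59-fold, 2.38 to 9.71). Fdps, farnesyl diphosphate synthase, had only 7 and 2 reads and was not measured.

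Some of these counts are uncertain because of shared sequence. Of the 50-base words in the Fdps transcript, 86.4% also occur in other annotated transcripts, most of them in the overlapping gene model Gm43738. For Acat2 the share was 45.9%, all with its paralog Acat3, which had 0 reads in both libraries. Some of these words also occur in Tcp1. Tcp1 had 136 reads in the dKO-labelled library and 49 in the WT library (2.50-fold, 1.79 to 3.54). The part of Tcp1 in the Acat2 count was not tested. For Idi1 it was 30.5%, mostly with the gene model Gm13502. Without the members that share over 25% of their words (Acat2, Idi1, Fdps and Fdft1), a choice made after seeing the data, the median of the arm was 2.34, and 13 members in all were at least 2-fold higher.

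The later arm, from squalene to cholesterol, had 7 of 10 measured genes higher by at least 2-fold and 0 lower. Over all measured genes these shares were 26.2% and 4.18%. The median log2 ratio of the arm was 1.66. Of the 7, Lss, Nsdhl and Dhcr7 were below 20 normalised reads in the WT library (9.5, 10.5 and 15.8). They also passed the minimum through the dKO-labelled library. Fdft1, squalene synthase and the first enzyme committed to sterols, had 316 reads in the dKO-labelled library and 79 in the WT library (3.61-fold, 2.81 to 4.67). Its exons overlap those of Ctsb on the opposite strand over 774 bases, and the library kit named in the labels does not mark strand. Ctsb itself was close to equal, with 767 reads in the dKO-labelled library and 615 in the WT library (1.12-fold, 1.01 to 1.25). Sqle, squalene epoxidase, had 152 reads in the dKO-labelled library and 43 in the WT library (3.19-fold, 2.26 to 4.58). Lss, the cyclase that forms lanosterol, had 55 and 8 (6.20-fold, 2.93 to 15.1).

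Cyp51, lanosterol demethylase, had the highest read count of the synthesis genes in the dKO-labelled library, with 447 reads there and 97 in the WT library (4.15-fold, 3.33 to 5.23). Nsdhl, a dehydrogenase of sterol demethylation, had 57 reads in the dKO-labelled library and 9 in the WT library (5.71-fold, 2.81 to 13.1). Ebp, a sterol isomerase, had 129 and 47 (2.47-fold, 1.76 to 3.53). Dhcr7, the reductase that forms cholesterol, had 55 and 14 (3.54-fold, 1.94 to 6.90). Nsdhl and Ebp lie on the X chromosome. Tm7sf2, a sterol reductase, was below the minimum with 17 reads in the dKO-labelled library and 1 in the WT library (15.3-fold, 2.40 to 640).

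Measured genes of this arm that missed the 2-fold size were Msmo1, Sc5d and Hsd17b7. Msmo1, the methylsterol oxidase, had 425 reads in the dKO-labelled library and 217 in the WT library (1.77-fold, 1.5 to 2.09). Sc5d, a sterol desaturase, had 335 and 177 (1.71-fold, 1.42 to 2.06). Hsd17b7, a ketoreductase that acts beside NSDHL, had 83 and 37 (2.02-fold, 1.36 to 3.07), and its log2 ratio after adding 1 was 0.98. The intervals of Msmo1 and Sc5d did not overlap those of Cyp51, Fdft1 or Idi1. Msmo1 and Sc5d also had the most reads of any synthesis gene in the WT library.

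**Figure D2:**
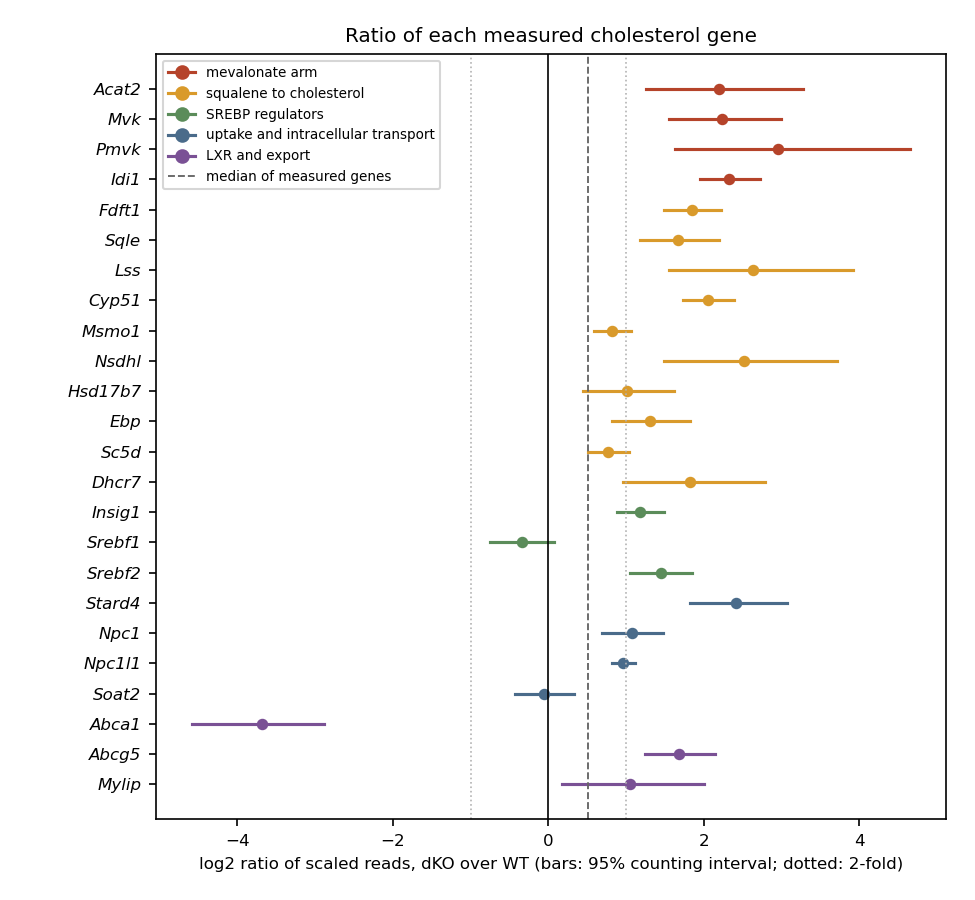
Log2 ratio of scaled reads, dKO-labelled over WT library, for the 24 measured genes with 95% counting intervals, coloured by step, with dotted lines at 2-fold and a dashed line at the median of measured genes (0.51, from counts with 1 added). The 4 mevalonate genes lie at 4.59-fold or above, Msmo1 and Sc5d lie below 2-fold, Srebf1 and Soat2 include 0, and Abca1 stands apart on the left.

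Per kilobase of transcript, the enzymes differed in level as well as in ratio. Msmo1 had the highest level of the synthesis genes in both libraries, with 197 normalised reads per kilobase in the dKO-labelled library and 112 in the WT library. Idi1 followed in the dKO-labelled library with 117 (23.3 in the WT library), and Cyp51 with 108 (26.0). Lss was among the lowest, with 11.2 in the dKO-labelled library and 1.81 in the WT library. In the WT library Sc5d stood next to Msmo1 with 38.9 (66.4 in the dKO-labelled library), ahead of Ebp with 28.4 (70.3).

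**Figure D3:**
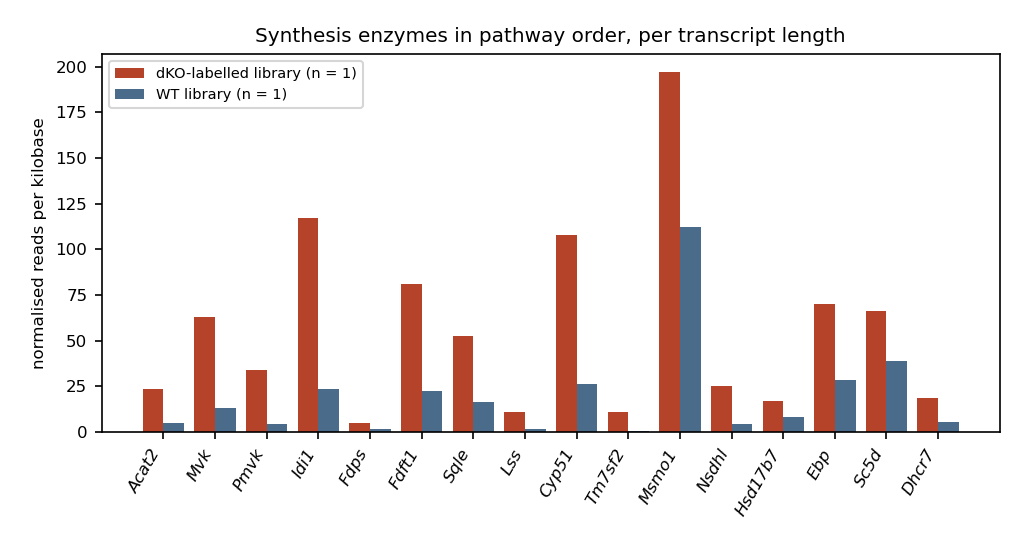
Normalised reads per kilobase of transcript for the 16 synthesis genes in pathway order, bars starting at 0, the dKO-labelled library left of the WT library, 1 library each and no error bars. Msmo1 is highest in both, and Idi1 and Cyp51 reach 117 and 108 in the dKO-labelled library, against 23.3 and 26.0 in the WT library.

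Reads of the 16 synthesis genes in the table made up 0.251% of the dKO-labelled library (0.242 to 0.261, exact interval) and 0.108% of the WT library (0.10 to 0.115). A ratio of reads to other genes within a library does not depend on the scaling between libraries. For each read of the 12 enterocyte markers there were 0.159 synthesis reads in the dKO-labelled library and 0.0639 in the WT library, a change of 2.48-fold (2.29 to 2.70), or 2.63-fold (2.43 to 2.86) with Sis and Lct left out of the markers. By the same measure the mevalonate arm changed 4.33-fold (3.51 to 5.38) and the later arm 2.22-fold (2.03 to 2.42). The mevalonate arm had 0.284 reads per read of the later arm in the dKO-labelled library and 0.145 in the WT library, a 1.95-fold change (1.56 to 2.47). Summed reads follow the most abundant genes, and Idi1 holds 372 of the 588 mevalonate reads of the dKO-labelled library.

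Over all measured genes the ratio moved with level and with transcript length. The median log2 ratio was 0.77 for genes with a mean of 20 to 50 and 0.25 for those of at least 200, and at least 2-fold higher were 38.4% and 10.8% of them. Pmvk, Lss, Nsdhl, Acat2 and Dhcr7 had means between 20 and 50, and Idi1 and Cyp51 had means of 212.9 and 264.3. The median was 0.72 for transcripts under 1500 bases and 0.18 for those of at least 6000. The part of level and length in the members' ratios was not tested.

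**Figure D4:**
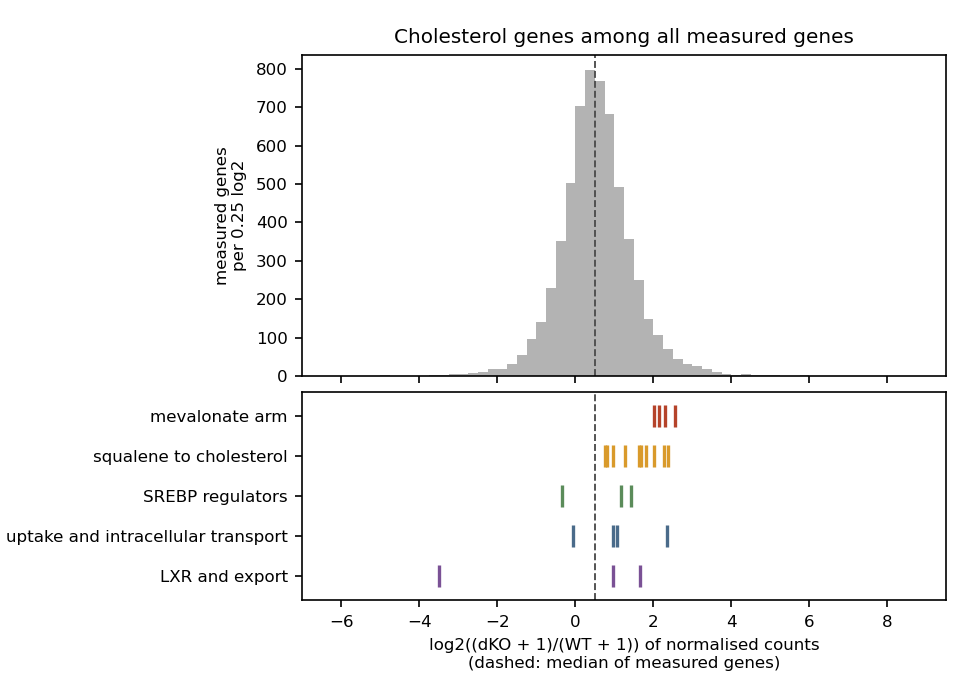
Upper panel, histogram of the log2 ratio of 6001 measured genes in bins of 0.25; lower panel, each measured cholesterol gene as a tick by step; the dashed line in both marks the median of 0.51. The mevalonate ticks lie between 2.01 and 2.55, and 1 LXR and export tick, Abca1, lies at -3.50.

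Promoters of these genes are shown because SREBP acts at such sites together with the factors that bind CCAAT and GC boxes. RefSeq promoter windows (GRCm38.p6, from 250 bases before to 50 after each start, on the gene's strand) were found for 27 of the 34 genes. CCAAT, searched on both strands, was present in at least 1 window of 22 of the 27 genes (81.5%), against 11096 of 27025 genes with a window (41.1%). The GC box GGGCGG was present in 21 (77.8%), against 38.2% of all. The 27025 genes include genes that were not measured here. No set matched to the members in expression was compared, so these shares do not set the members apart from other expressed genes. The sterol element core CACCCCAC was present in 2 (7.41%), Acat2 and Hmgcs1, against 3.30% of all. The E-box TCACGTGA and the LXR-type DR4 repeat of AGGTCA were in 0 of the 27, against 1.12% and 0.0148% of all. At shares this low, 0 of 27 tells nothing about the members, and only exact letters were searched. Among measured genes with a window, CCAAT was present in 11 of the 12 that were at least 2-fold higher and in 6 of the other 7. A match of letters is not a bound site.

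The windows of 4 genes are given, chosen as the synthesis gene with the most reads in the dKO-labelled library (Cyp51), a gene with a sterol element core (Acat2), and exporters at opposite ends of the ratios (Abcg5 and Abca1). They lie at chr5:4104648-4104947, chr17:12960676-12960975, chr17:84682962-84683261 and chr4:53159846-53160145, all on the minus strand, and are written 5′ to 3′. Capitals mark the CCAAT box, the GC box and the sterol element core on either strand.
Cyp51: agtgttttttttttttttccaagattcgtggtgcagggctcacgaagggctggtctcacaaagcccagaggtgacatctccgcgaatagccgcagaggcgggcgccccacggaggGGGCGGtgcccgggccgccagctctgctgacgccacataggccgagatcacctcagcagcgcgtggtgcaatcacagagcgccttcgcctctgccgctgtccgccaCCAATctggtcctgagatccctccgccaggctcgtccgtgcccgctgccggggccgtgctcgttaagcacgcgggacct
Acat2: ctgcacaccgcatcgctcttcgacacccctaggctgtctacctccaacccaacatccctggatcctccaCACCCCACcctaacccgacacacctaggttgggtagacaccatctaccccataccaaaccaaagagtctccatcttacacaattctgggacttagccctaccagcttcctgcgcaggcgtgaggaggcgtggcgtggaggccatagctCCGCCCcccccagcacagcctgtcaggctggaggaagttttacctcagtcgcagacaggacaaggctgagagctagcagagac
Abcg5: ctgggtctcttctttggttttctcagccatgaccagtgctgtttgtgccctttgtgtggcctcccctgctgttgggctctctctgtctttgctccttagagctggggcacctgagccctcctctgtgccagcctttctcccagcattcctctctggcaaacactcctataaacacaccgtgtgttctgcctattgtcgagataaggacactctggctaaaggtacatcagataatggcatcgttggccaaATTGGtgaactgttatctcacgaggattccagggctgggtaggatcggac
Abca1: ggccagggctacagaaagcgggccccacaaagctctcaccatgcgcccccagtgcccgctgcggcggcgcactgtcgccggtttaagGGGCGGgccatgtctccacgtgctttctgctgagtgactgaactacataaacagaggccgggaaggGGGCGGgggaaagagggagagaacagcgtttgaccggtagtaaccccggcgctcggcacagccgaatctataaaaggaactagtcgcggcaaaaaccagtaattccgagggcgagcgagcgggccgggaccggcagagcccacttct

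Cyp51 holds 1 CCAAT and 1 GC box, Acat2 the sterol core and 1 GC box, Abcg5 1 CCAAT and no GC box, and Abca1 2 GC boxes and no CCAAT. The Abcg5 window shares 209 bases with a window of Abcg8, which is read in the other direction.

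Of the 3 measured SREBP regulators, 2 were at least 2-fold higher, against 26.2% of all measured genes. With 3 genes the count says little beside that share. Srebf2, which encodes the SREBP that mainly drives cholesterol synthesis, had 214 reads in the dKO-labelled library and 71 in the WT library (2.72-fold, 2.07 to 3.61). Srebf1, whose products mainly drive fatty acid synthesis, had 93 in the dKO-labelled library and 106 in the WT library (0.791-fold, 0.592 to 1.05). The Srebf2 to Srebf1 ratio, which is free of the scaling, was 2.30 in the dKO-labelled library and 0.670 in the WT library, a 3.43-fold change (2.29 to 5.15). The interval of Srebf1 includes equality, and it ranked 5162 of 6001 measured genes from the highest ratio down.

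Insig1, itself an SREBP target as well as a brake on SREBP, had 323 reads in the dKO-labelled library and 128 in the WT library (2.27-fold, 1.85 to 2.81). Insig2 has 2 rows in the table, with 0 and 4 reads in the first and 2 and 0 in the other (dKO-labelled library before WT library), too few to compare.

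Of the 4 uptake and transport genes, 2 were at least 2-fold higher, against 26.2% of all measured genes. With 4 genes the count says little beside that share. The median log2 ratio of the 4 was 1.01. Stard4, a soluble carrier that delivers cholesterol to the endoplasmic reticulum, had 160 reads in the dKO-labelled library and 27 in the WT library (5.34-fold, 3.54 to 8.36). It ranked 192 of 6001, in the same range as the mevalonate genes. Npc1, which moves cholesterol out of lysosomes, had 185 reads in the dKO-labelled library and 79 in the WT library (2.11-fold, 1.61 to 2.78). Its exons overlap those of Rmc1 on the opposite strand over 511 bases.

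Npc1l1, the brush border entry protein for dietary cholesterol and the target of ezetimibe, had the highest level of all members per kilobase, with 254 normalised reads per kilobase in the dKO-labelled library and 130 in the WT library. Its reads numbered 1194 in the dKO-labelled library and 553 in the WT library (1.95-fold, 1.76 to 2.16), just short of the 2-fold size. Against the enterocyte markers it changed 1.68-fold (1.52 to 1.87). Markers of the proximal small intestine, where cholesterol is mainly absorbed, summed to 1617 reads in the dKO-labelled library and 613 in the WT library (2.38-fold, 2.17 to 2.61), of which Lct held 847 and 184. Among the rest, Slc40a1 had 244 and 74 (2.97-fold), Onecut2 292 and 137 (1.92-fold) and Gata4 188 and 132 (1.28-fold). Cybrd1, however, had 38 and 77 (0.445-fold) and Pdx1 8 and 9. Ileal markers summed to 1014 and 467 (1.96-fold, 1.75 to 2.19). Fabp6 had 524 and 188 (2.51-fold), Cubn 49 and 3 (14.7-fold), Slc51b 161 and 79 (1.84-fold) and Slc51a 277 and 194 (1.29-fold). Slc10a2 had 3 in both. The part of either marker set in these results was not tested. Soat2, the acyltransferase that esterifies absorbed cholesterol in enterocytes, had 119 reads in the dKO-labelled library and 111 in the WT library (0.966-fold, 0.740 to 1.26). The Npc1l1 to Soat2 ratio was 2.01-fold higher in the dKO-labelled library than in the WT library (1.51 to 2.68).

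The LXR and export genes did not share a direction. Abca1, the plasma membrane transporter that loads cholesterol onto apolipoprotein A-I, had 14 reads in the dKO-labelled library and 162 in the WT library, 12.8-fold lower (7.43 to 24). It was the lowest measured member, at rank 5995 of 6001. Its transcript of 10262 bases is long, and long transcripts had lower ratios in these libraries. Of the 698 measured genes of at least 6000 bases, 3 including Abca1 itself had a ratio at or below that of Abca1, and the part of length in its ratio was not tested. Macrophages also express Abca1, and their markers summed to 310 reads in the dKO-labelled library and 239 in the WT library (1.17-fold, 0.984 to 1.39). Emr1, Cd68 and Mrc1 had 3, 3 and 14 reads in the dKO-labelled library and 5, 7 and 21 in the WT library. The other markers of the set had more reads in the dKO-labelled library, such as C1qa with 97 and 66. The part of macrophages in the Abca1 result was not tested.

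Abcg1, an exporter of cholesterol to high-density lipoprotein, was below the minimum, with 6 reads in the dKO-labelled library and 16 in the WT library (2.96-fold lower, 1.10 to 9.23). Abcg5, a subunit of the exporter to the gut lumen, had 196 reads in the dKO-labelled library and 55 in the WT library (3.21-fold, 2.37 to 4.42). The Abcg5 to Abca1 ratio was 14 in the dKO-labelled library and 0.340 in the WT library, a 40.7-fold change (21.5 to 82.4). Abcg8, the partner of Abcg5, had 1 read in the dKO-labelled library and 0 in the WT library. Mylip, an LXR target that degrades lipoprotein receptors, had 37 reads in the dKO-labelled library and 16 in the WT library (2.08-fold, 1.13 to 4.01), with a log2 ratio of 0.97.

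The LXR genes themselves could not be assessed. Nr1h2 had 0 reads in both libraries. Nr1h3 had 1 read in each library in its main row and 1 and 0 in its other row. These genes and Fdps, Insig2 and Abcg8 each have at least 2 curated transcripts in RefSeq, and none was measured. Of the members with 1 curated transcript, 18 of 20 were measured, and of those with 2 or more, 6 of 11. Over all genes the shares measured were 29.5% and 28.5%.

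Neighbouring parts of the pathway were compared through 7 lists. Of 7 measured genes that process SREBP or degrade sterol-regulated proteins, 0 were at least 2-fold higher, against 26.2% of all measured genes. Their median log2 ratio was 0.53, close to the 0.51 of all measured genes. Rnf145, a sterol-responsive ubiquitin ligase, and Erlin2, a membrane scaffold of this degradation, were at log2 ratios of 0.66 and 0.64. Genes that use mevalonate products for other ends, such as protein prenylation and ubiquinone, had 0 of 10 higher, beside the same 26.2%. Their median was 0.54. Fnta, a prenyltransferase subunit, had the largest ratio of the list, with 130 reads in the dKO-labelled library and 58 in the WT library (2.02-fold, 1.47 to 2.80, log2 ratio 0.99). Its partner subunit Fntb was at 0.70 and the prelamin protease Zmpste24 at 0.61, and the list reached down to -0.41.

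Fatty acid synthesis genes had 4 of 6 measured members at least 2-fold higher, against 26.2% of all measured genes, and a median log2 ratio of 1.53. A further 9 of the 15 in the table were below the minimum. Acss2, which makes acetyl-CoA from acetate, had 42 reads in the dKO-labelled library and 3 in the WT library (12.6-fold, 4.03 to 63.6). Elovl5, a fatty acid elongase, had 35 and 5 (6.31-fold, 2.46 to 20.6). Fasn, fatty acid synthase, had 56 and 16 (3.15-fold, 1.78 to 5.89). All 3 were below 20 normalised reads in the WT library and passed the minimum through the dKO-labelled library.

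A list of electron donors, a scaffold and a relative of the sterol enzymes had 4 of 6 measured members higher and a median of 1.57. Of all measured genes, 26.2% were higher. The electron donors Por and Cyb5r3 were not: Por had 373 reads in the dKO-labelled library and 403 in the WT library (0.834-fold, 0.723 to 0.963). Cyb5r3 had 801 and 484 (1.49-fold, 1.33 to 1.67). Ebpl, a relative of Ebp, had 90 reads in the dKO-labelled library and 12 in the WT library (6.76-fold, 3.69 to 13.6). Cyb5b, a membrane cytochrome, had 1425 and 405 (3.17-fold, 2.84 to 3.55), and Cyb5, the microsomal cytochrome that serves the desaturase and oxidase steps, 336 and 99 (3.06-fold, 2.44 to 3.87). Ebpl was below 20 normalised reads in the WT library and passed the minimum through the dKO-labelled library. Other sterol transport and ester hydrolysis genes had 5 of 12 higher, against 26.2% of all measured genes, 0 lower and a median of 0.69. Tmem97, which binds NPC1, had 66 reads in the dKO-labelled library and 13 in the WT library (4.58-fold, 2.50 to 9.04). Scarb2, a lysosomal membrane protein, had 70 and 14 (4.51-fold, 2.52 to 8.67), and Stard5 52 and 17 (2.76-fold, 1.57 to 5.09). These 3 also were below 20 normalised reads in the WT library, so they passed the minimum through the library where they are high.

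Further LXR targets had 1 of 3 measured members higher, near the 26.2% of all measured genes, and a median log2 ratio of 0.18. Smpdl3a, a phosphodiesterase, had 196 reads in the dKO-labelled library and 64 in the WT library (2.76-fold, 2.07 to 3.72). Abca7, a relative of Abca1, had 164 and 130 (1.14-fold, 0.898 to 1.44), and Lpcat3, a phospholipid acyltransferase, 185 and 172 (0.97-fold, 0.783 to 1.20). Of the oxysterol genes only Sult2b1, a sterol sulfotransferase, was measured, with 422 reads in the dKO-labelled library and 340 in the WT library (1.12-fold, 0.968 to 1.29).

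**Figure D5:**
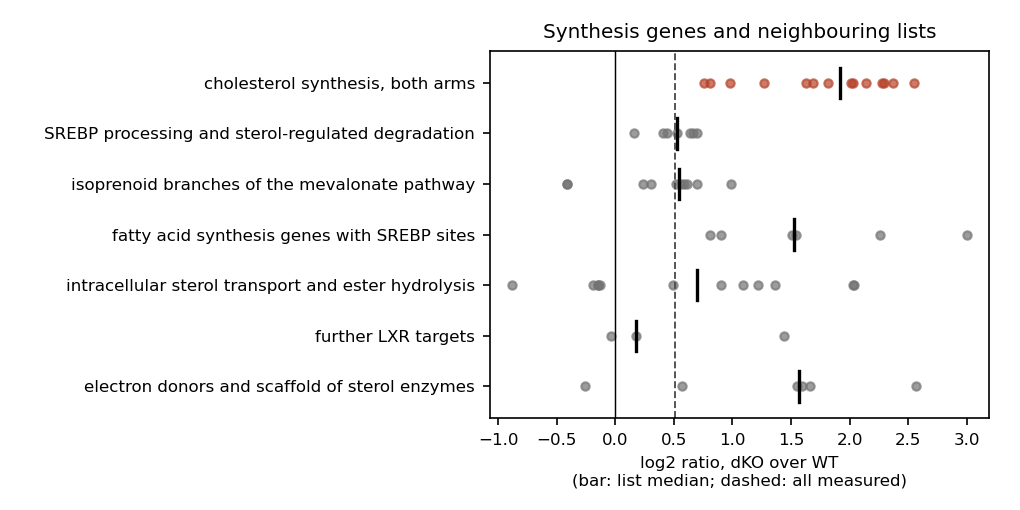
Log2 ratio, dKO-labelled over WT library, of measured genes in the synthesis list (red) and in 6 neighbouring lists with at least 3 measured genes (grey), with list medians as bars and the median of all measured genes (0.51) dashed. The synthesis genes have a median of 1.92, and the isoprenoid branch and SREBP processing genes centre on the dashed line at 0.54 and 0.53.

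In the authors' deposited table, 1 of the 31 genes had an unadjusted DESeq p-value under 0.05, Abca1 with 0.0172, as did 123 of 22040 transcripts. Without replicates that column has no measured spread behind it. An exact binomial test on the read counts, added after seeing the data and adjusted by Benjamini-Hochberg over 15119 genes with a read, called 22 members higher and 1 lower, against 23.0% and 4.82% of those genes. It compares the libraries and not the genotypes, and it passes smaller differences in genes with more reads.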

How the data were processed

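Per the labels' protocols, RNA of villi was made into libraries with a TruSeq RNA v2 kit. TopHat, DESeq and mm9 are named in the submitters' processing notes, without versions. Neither a counting tool nor its use of strand is given in the sources used here. The signal columns deposited by the authors are read counts per RefSeq transcript divided by a size factor (base means, per the file headers). The deposited fold (ratio) and log2 columns compare them, and the deposited p-value is unadjusted.

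All 22040 values of each column were whole multiples of its smallest value (100.0% within 0.001 of a step), with no 0. Reads were taken as steps minus 1, an inference that 1 read had been added. The highest-mean row stood for each symbol. Spreadsheet dates stood in place of 33 symbols, which were restored from their identifiers. Lengths came from GENCODE M21, and names, transcript numbers and promoters from RefSeq GRCm38.p6. The 50-base words were compared on both strands with all GENCODE transcripts.

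Members and lists were chosen with earlier results of these data known. All members are reported, with at most 3 genes of each neighbouring list by absolute log2 ratio, apart from Por and Cyb5r3. Marker genes are named without that limit. No test was made between genotypes, since each had 1 library. Functions were tested on simulated data. Python 3.11.15, pandas 2.3.3, numpy 2.4.6, scipy 1.17.1, matplotlib 3.10.9 and, for TMM, edgeR 4.0.16 in R 4.3.3 were used. Alternatives were other scalings, a pseudocount of 5, other filters, an interval rule and summed rows.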

Additional observations from a re-analysis of the deposited data

How the results depend on the processing

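Leaving out replicates was not possible with 1 library per genotype. No paired analysis was possible because the genotypes share a single replicate number. Members at least 2-fold higher numbered 16 of 24, beside 1574 of all 6001 measured genes. They numbered 13 with total counts (all genes: 1004), 12 with TMM (713) and 10 with upper-quartile scaling (532). With the counting interval wholly beyond 2-fold they numbered 12, beside 627 of all measured genes. At a mean of at least 100, which keeps a smaller set of genes, they numbered 7, beside 358 of all genes in that set. By level, 19.1% of genes with a mean of 100 to 200 and 10.8% of those of at least 200 were at least 2-fold higher. Members at least 2-fold lower numbered 1 of 24, beside 251 of all 6001 measured genes. They numbered 2 with the upper quartile (all genes: 861) and 3 without a filter (892), a setting that adds the 7 members below the minimum. Among genes averaging 100 or more, where Abca1 is left out, they numbered 0 (104). Total counts, TMM and the upper quartile shift every log2 ratio by -0.30, -0.52 and -0.69.

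The mevalonate median of 2.21 was 1.71 once the median over measured genes was moved to 0, 1.70 with TMM and 1.53 with the upper quartile. The median of the later arm, 1.66, was 0.98 with the upper quartile. For SREBP regulators the median of 1.17 was 0.88 with total counts, 0.67 with the median at 0, 0.66 with TMM, 0.48 with the upper quartile, and 0.42 with no filter, which adds Insig2. For uptake and transport the median of 1.01 was 0.71 with total counts, 0.50 with the median at 0, 0.49 with TMM and 0.32 with the upper quartile. These 4 scalings lower every ratio by a constant, so they bear on size and not on the order of the genes. A pseudocount of 5 and summed rows kept all 24 measured members inside their counting intervals. Without Sis and Lct among the enterocyte markers, the change per marker read was 2.63-fold for synthesis, 4.58-fold for the mevalonate arm, 2.35-fold for the later arm and 1.78-fold for Npc1l1. That choice, the median at 0, summed rows for the medians and the removal of members with shared words were chosen after seeing the data. Fdps, Insig2, Nr1h2, Nr1h3, Abcg8, Tm7sf2 and Abcg1 had at most 17 reads in either library, and the cause of these low counts was not tested.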
